A study of Mus musculus with 9 samples.

Results

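The 10 genes described here are myeloid lineage genes and lysozymes: Lyz1, Lyz2, Tyrobp, Fcer1g, Cebpa, Cebpb, Csf1r, Csf2rb, Cd68 and Ccl6. They were found by gene name, or by an older alias such as Lyzs, among the probes of an Agilent mouse array, which gave 18 probes of 41174, and 10 genes of the 21164 named genes. RNA came from pro-B cells (B-cell precursors) transformed with A-MuLV, the Abelson murine leukaemia virus, and every group carried the Ebf1 fl/fl alleles with the RERTCre transgene, a Cre recombinase that tamoxifen switches on, and received 2 µM 4-hydroxy-tamoxifen (4-OHT). The 3 EBF1ΔC samples had been transduced with pmys-EBF1ΔC-IRES-GFP, a retrovirus for a form of EBF1 that lacks the C-terminal domain. The 3 EBF1wt samples had received pmys-EBF1wt-IRES-GFP, which encodes the full-length factor. Both were given 4-OHT 24 h after transduction, sorted as GFP+ after 5 days and cultured for more than 2 weeks, and the 3 Mock samples were mock-transduced cells taken on day 4 of 4-OHT. The first comparison asks what the C-terminal domain contributes when EBF1 is replaced, and the comparisons with Mock ask what either form changes. The labels do not say that replicates were separate cultures, so p-values reflect the spread among these samples and nothing wider.

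Myeloid cells and B cells arise from shared progenitors, and EBF1 is a transcription factor that specifies and maintains the B lineage and helps to keep genes of other lineages silent. In myeloid cells, C/EBP factors and PU.1 drive genes such as those for lysozyme, the M-CSF receptor Csf1r, and the signalling adaptors Tyrobp and Fcer1g, which carry the ITAM motif that recruits the kinase Syk. Lysozyme, an enzyme that cuts bacterial cell walls, is a classical mark of macrophages and granulocytes. It is encoded in mice by the neighbouring genes Lyz2, the myeloid form, and Lyz1, known mainly from Paneth cells of the gut.

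Arrays were alike in brightness, with a 75th percentile of 384 to 508 intensity units and 50.7% to 56.9% of probes well above background. Of 15 pro-B markers, 14 stood clear of background on all 3 arrays of each group. The summed linear signal of the 15, in units of that percentile, was 329 to 342 in Mock. It was 965.5 to 1009 in EBF1ΔC and 934 to 1037 in EBF1wt. By the rule given below, 6 of 14 tested were called higher and 0 lower in EBF1ΔC than in Mock, and 8 and 1 in EBF1wt. The shares of all probes were 6.04% and 16.3% in EBF1ΔC, and 6.09% and 17.4% in EBF1wt. The Ebf1 probe that lists the gene's RefSeq mRNA lay at 3.81, 3.74 and 3.85 in EBF1ΔC, at 3.17, 2.87 and 3.16 in EBF1wt, and at 1.73, 1.47 and 1.17 in Mock. On it EBF1ΔC exceeded EBF1wt by 0.74 on the log2 scale, or 1.67-fold (adjusted p = 0.0275, limma). Whether this probe reads the endogenous transcript, the transduced one or both was not examined. A second Ebf1 probe, A_52_P531838, lists another transcript and went the other way against Mock. It was well above background on the Mock arrays and on no EBF1 array, at least 6.96-fold lower in EBF1ΔC and at least 6.56-fold lower in EBF1wt than in Mock. Why the probes differ was not tested. Mock arrays were scanned on another day and on other slides than the EBF1 arrays, and they also differ in time after 4-OHT, viral transduction, sorting and length of culture, so none of these can be told apart from EBF1 in a comparison with Mock. Of the 6 slides, 2 held an EBF1ΔC and an EBF1wt array. All levels below are log2 signals relative to the array's own 75th percentile, so that 0 is the level of that percentile, and levels of different probes are not set against each other. Signals were called well above background by the scanner software, and the dimmest such signal on an array lay between -5.67 and -5.18.

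Replacement with EBF1ΔC left lysozyme RNA 7.60 to 8.59 times as high as replacement with EBF1wt, over 3 probes, and that of the chemokine Ccl6 3.52 times as high. Without EBF1wt replicate 2 the lysozyme differences were 2.08 to 2.26 on the log2 scale, against 2.93 to 3.10 with it, and with the slide as a block none of these calls held. The lysozyme and Ccl6 probes called higher were 4 of the 13 probes that could be tested. None was called lower by limma, and at an unadjusted p under 0.05 there were 9 higher and 1 lower. The 9 include the 3 lysozyme and the 3 Csf2rb probes. The share of all probes at that unadjusted threshold was not counted, so such counts, here and for the lists below, have no background to be read against. Of all 22355 probes tested, 1.14% were called higher and 0.854% lower in EBF1ΔC than in EBF1wt. Testing required a signal clear of background on the 3 arrays of 1 group or more, and a call required an adjusted p (Benjamini-Hochberg) under 0.05 together with a 2-fold change. Against Mock, lysozyme and Cebpb were higher in both EBF1 groups, while Tyrobp, Fcer1g, Cd68 and Ccl6 were lower in both. In EBF1wt minus Mock, 4 probes were called higher (6.09% of all probes) and 7 lower (17.4%). In EBF1ΔC minus Mock, 5 were called higher (6.04%) and 5 lower (16.3%). The filter lets in a probe through the group in which it is bright: the probes Lyz2 A_51_P321150 and Fcer1g A_51_P405478 passed through EBF1ΔC alone and Mock alone, so the counts describe the probes and support nothing. RNA was measured in bulk, where fewer cells of a type and less RNA per cell cannot be told apart.

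**Figure D1:**
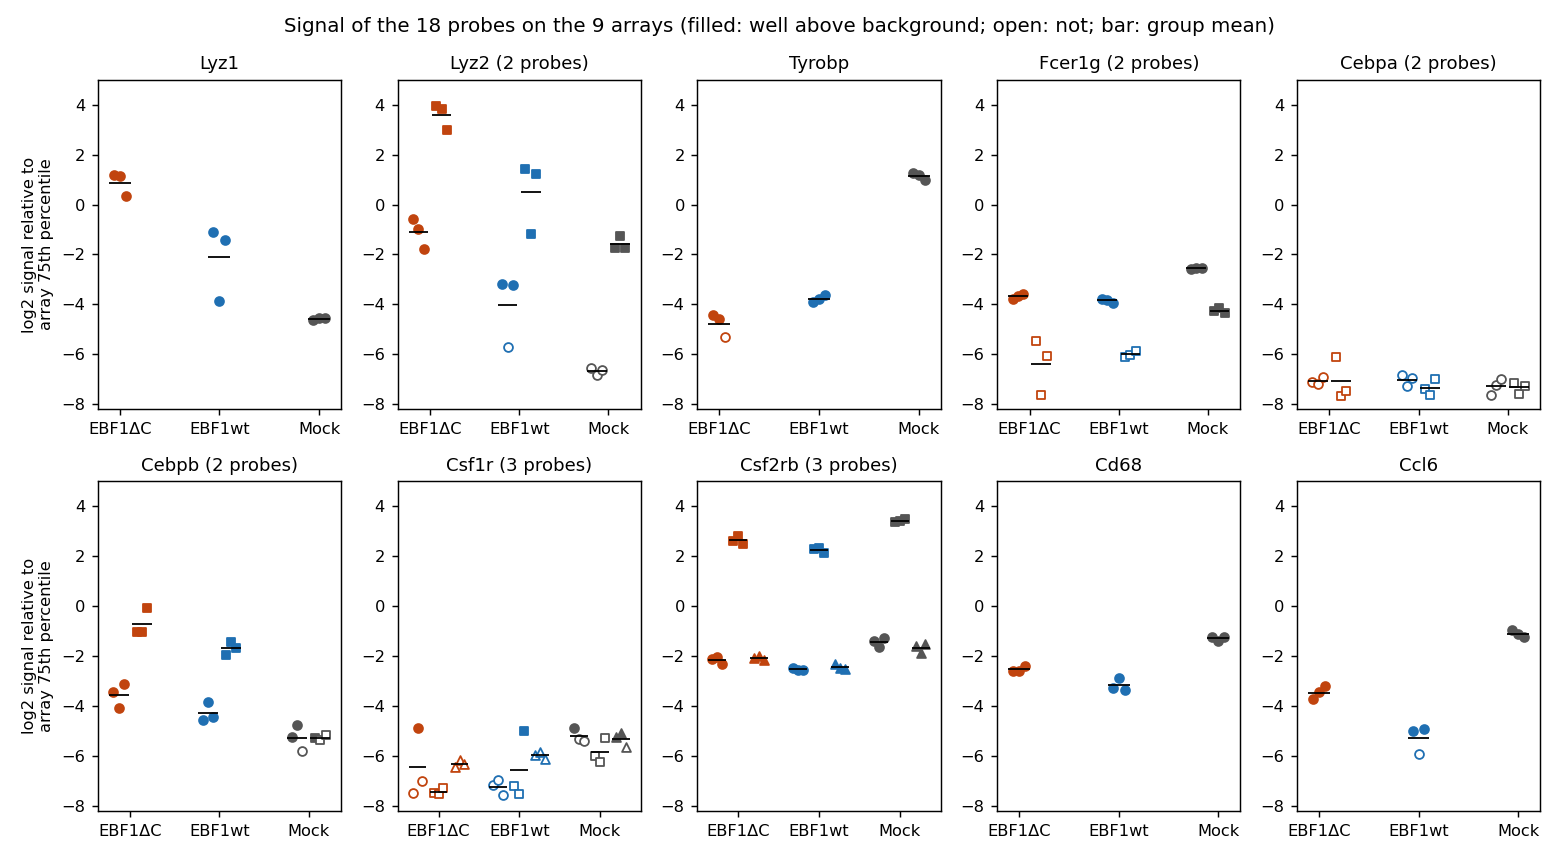
Log2 signal relative to each array's 75th percentile (y axis) for the 18 probes of the 10 genes, in EBF1ΔC, EBF1wt and Mock (x axis, 3 arrays each); filled points were well above background, open points were not, bars are group means and point shapes are different probes of a gene. Lysozyme points fall from left to right with 1 EBF1wt array near the Mock arrays, Tyrobp, Cd68, Ccl6 and Csf2rb are highest in Mock, and all Cebpa points are open.

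Lysozyme was read by 3 probes on chromosome 10, minus strand, of the mm9 build. The probe named Lyz1, A_52_P582059 (chr10:116725254-116725313), lists a transcript of Lyz1 and one of Lyz2 among its targets, so it is not specific to Lyz1, and no other probe carries that name. The probes named Lyz2 are A_51_P321150 (chr10:116719175-116719234) and A_52_P238027 (chr10:116714450-116714509), and neither lists that Lyz1 transcript. Both genes are close copies of each other, so which of them gave the signal is uncertain. To show what was hybridised, the Lyz2 probe A_51_P321150 is given whole and the shared probe by its first 30 of 60 bases, each 5′ to 3′.
Lyz2 A_51_P321150: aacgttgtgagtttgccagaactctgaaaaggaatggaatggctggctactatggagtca
Lyz1 A_52_P582059: aaatacaagaactgtttataggagaccagt

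On the probe named Lyz1, the level was 1.17, 1.14 and 0.34 in EBF1ΔC, -1.10, -3.85 and -1.40 in EBF1wt, and -4.61, -4.54 and -4.55 in Mock. The Lyz2 probe A_52_P238027 read 3.94, 3.84 and 2.98 in EBF1ΔC, 1.41, -1.20 and 1.24 in EBF1wt, and -1.73, -1.25 and -1.74 in Mock. All EBF1ΔC arrays were above all EBF1wt arrays on every lysozyme probe, and all EBF1wt arrays above all Mock arrays, but EBF1wt replicate 2 lay close to Mock and far from the other EBF1wt arrays. EBF1ΔC replicate 3, the lowest of its group on every lysozyme probe, shared a slide with EBF1wt replicate 2. The Lyz2 probe A_51_P321150 read -0.59, -0.96 and -1.79 in EBF1ΔC, -3.19, -5.72 and -3.21 in EBF1wt, and -6.54, -6.84 and -6.64 in Mock. On this probe EBF1wt replicate 2 and all Mock arrays were not well above background.

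EBF1ΔC exceeded EBF1wt by 3.0 on the log2 scale on the Lyz1 probe (SE 0.63, adjusted p = 0.0327, limma), by 3.10 on Lyz2 A_52_P238027 (SE 0.63, adjusted p = 0.0284) and by 2.93 on Lyz2 A_51_P321150 (SE 0.64, adjusted p = 0.0357). These probes read overlapping or closely similar transcripts and count as 1 observation of lysozyme rather than 3. Without EBF1wt replicate 2 the differences were 2.13, 2.26 and 2.08, with adjusted p = 0.00409, 0.00615 and 0.0104. On the slide shared by EBF1ΔC replicate 3 and EBF1wt replicate 2 the differences were 4.19, 4.17 and 3.93, and on the slide shared by EBF1ΔC replicate 1 and EBF1wt replicate 3 they were 2.57, 2.71 and 2.62. With the slide as a block the differences were 3.38, 3.44 and 3.27 and the calls were lost (adjusted p = 0.075, 0.0742 and 0.0656). The calls also ended on all 3 probes without EBF1ΔC replicate 1 (Lyz2 A_52_P238027 at 2.92, adjusted p = 0.0969) or replicate 2 (2.97, 0.0966), and without Mock replicate 2 (3.10, 0.0515) or Mock replicate 3 (3.10, 0.0557), where the difference itself is that of all 9 arrays. Without Mock replicate 1 the call of Lyz2 A_52_P238027 stood and those of the Lyz1 probe (adjusted p = 0.0556) and of Lyz2 A_51_P321150 (0.059) ended, and without EBF1ΔC replicate 3 that of the Lyz1 probe did (3.27, 0.0526).

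Against Mock, the Lyz1 probe was higher by 5.45 in EBF1ΔC (SE 0.63, adjusted p = 0.000135) and by 2.45 in EBF1wt (SE 0.63, adjusted p = 0.00847). Lyz2 A_52_P238027 was higher by 5.16 in EBF1ΔC (SE 0.63, adjusted p = 0.000175) and by 2.06 in EBF1wt (SE 0.63, adjusted p = 0.0184). For Lyz2 A_51_P321150, which was not measured above background in Mock, the bounds were at least 19.8-fold higher in EBF1ΔC and at least 2.61-fold higher in EBF1wt, set against the dimmest signal called above background on each Mock array. Both comparisons use the same Mock arrays. The EBF1wt call on Lyz2 A_52_P238027 was lost without Mock replicate 1 (1.98, adjusted p = 0.0503) or 3 (1.98, adjusted p = 0.0546), and without EBF1wt replicate 1 (1.60, adjusted p = 0.0617) or 3 (1.68, adjusted p = 0.0629). Without EBF1wt replicate 2 that difference was 2.90 (adjusted p = 0.000137).

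**Figure D2:**
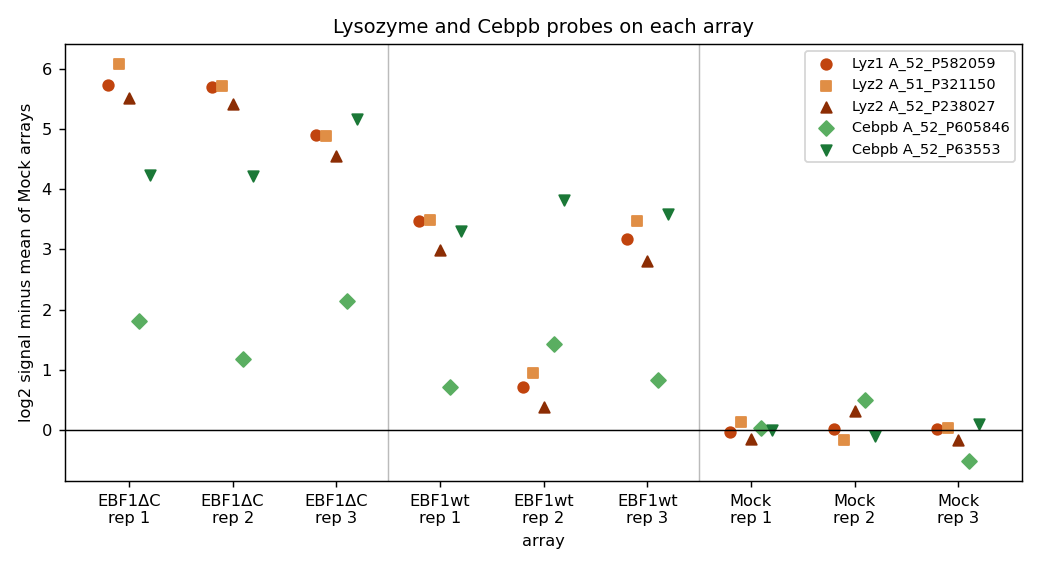
Log2 signal minus the mean of the 3 Mock arrays (y axis) for the 3 lysozyme and the 2 Cebpb probes on each of the 9 arrays (x axis). The lysozyme probes move as 1 block and drop in EBF1wt replicate 2, whereas neither Cebpb probe drops there.

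The 3 lysozyme probes moved together from array to array. Relative to its own Mock mean, lysozyme was higher by 0.38 to 0.95 on EBF1wt replicate 2, against 2.81 to 3.48 on the other EBF1wt arrays and 4.55 to 6.09 on the EBF1ΔC arrays. Pearson's r with Lyz2 A_52_P238027 over the 9 arrays was 0.997 for the Lyz1 probe and 0.992 for the second Lyz2 probe, where the 9 points share 3 groups and a common scaling. For the other tested members r was 0.81 and 0.73 on the Cebpb probes, and between -0.82 and -0.37 on the probes of Tyrobp, Fcer1g, Csf2rb, Cd68 and Ccl6. Among all named genes, the pattern most like that of Lyz2 was found in Cul7, a cullin of ubiquitin ligases (r = 0.995), followed by Dnase1l1 (0.990), Galnt10 (0.990), Incenp (0.989) and Cd82 (0.989). Their changes were smaller than that of Lyz2. Cul7 lay at 0.61, 0.49 and 0.06 in EBF1ΔC, at -0.46, -1.87 and -0.55 in EBF1wt, and at -1.79, -1.66 and -1.84 in Mock, so its EBF1wt replicate 2 lay just below the Mock arrays. The other members of the lysozyme family on the array, Lyzl1, Lyzl4, Lyzl6 and Spaca3, which are expressed mainly in the testis, were not well above background in EBF1ΔC on any array and were not tested. Lyzl4 was well above background on 2 Mock arrays and 1 EBF1wt array, and at least 1.63-fold lower in EBF1ΔC than in Mock. Lyzl1, Lyzl6 and Spaca3 were not well above background in any group.

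Since no probe was specific to Lyz1, whether both genes moved was not measured. The 250 bases before the RefSeq start site of each gene are given (GRCm38.p6, minus strand, 5′ to 3′). Capitals mark ACTTCCT, the reverse complement of AGGAAGT, a core sequence bound by PU.1 and other ETS factors.
Lyz1 chr10:117292869-117293118: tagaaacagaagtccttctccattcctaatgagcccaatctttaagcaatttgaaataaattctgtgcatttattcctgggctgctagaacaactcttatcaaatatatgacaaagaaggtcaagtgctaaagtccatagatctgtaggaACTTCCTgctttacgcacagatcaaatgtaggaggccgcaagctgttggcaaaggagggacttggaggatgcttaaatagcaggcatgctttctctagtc
Lyz2 chr10:117282273-117282522: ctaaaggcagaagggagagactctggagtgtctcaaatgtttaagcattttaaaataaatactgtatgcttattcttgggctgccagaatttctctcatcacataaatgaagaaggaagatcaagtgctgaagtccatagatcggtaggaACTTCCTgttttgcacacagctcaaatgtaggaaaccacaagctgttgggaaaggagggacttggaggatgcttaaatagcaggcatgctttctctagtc
Aligned without gaps, 92 of the 100 bases next to the start were the same in both genes, against 49 of the 100 bases before those. In that farther stretch, runs such as aaataaat and tgggctgc occur in both genes at shifted positions. A count without gaps therefore understates the likeness there, and an alignment with gaps was not made. The motif begins 100 bases before the start in both.

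Motifs were searched on both strands from 250 bases before to 50 after the start, for the 7 members that the RefSeq promoter table holds. AGGAAGT was found in Lyz1, Lyz2 and Ccl6, where it begins 48 bases before the start, and in 9.35% of all 32851 promoters. TTGCNNAA, a C/EBP core sequence that does not overlap it, was found in Lyz1, beginning 209 bases before the start, in Cd68, beginning 43 bases before it, and in 10.8% of all promoters. The palindrome that EBF1 binds, TCCC and GGGA with 2 bases between them, was in none of the 7 and in 0.904% of all promoters. A match or its absence is a description of these letters only.

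Cebpb, a transcription factor of macrophage and granulocyte differentiation, was higher in both EBF1 groups than in Mock on the probe A_52_P63553 (chr2:167515847-167515905, plus strand, mm9). That probe read -1.02, -1.04 and -0.08 in EBF1ΔC, -1.96, -1.43 and -1.68 in EBF1wt, and -5.26, -5.35 and -5.16 in Mock, with 1 of the Mock arrays well above background. No group overlapped another. Its level exceeded Mock by 4.54 in EBF1ΔC (SE 0.25, adjusted p = 3.21e-06) and by 3.57 in EBF1wt (SE 0.25, adjusted p = 1.03e-05). EBF1ΔC minus EBF1wt was 0.97 (95% interval 0.39 to 1.55, adjusted p = 0.0652), which was not called.

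The second Cebpb probe, A_52_P605846 (chr2:167515309-167515368), gave the same order of groups and smaller differences. It read -3.46, -4.08 and -3.11 in EBF1ΔC, -4.55, -3.83 and -4.43 in EBF1wt, and -5.23, -4.77 and -5.79 in Mock, of which 2 Mock arrays were well above background. EBF1ΔC and EBF1wt overlapped on this probe, and both lay above Mock. EBF1ΔC exceeded Mock by 1.71 (SE 0.33, adjusted p = 0.00192), EBF1wt exceeded Mock by 0.99 (SE 0.33, adjusted p = 0.0254), just under the 2-fold minimum, and EBF1ΔC minus EBF1wt was 0.72 (95% interval -0.03 to 1.47, adjusted p = 0.252). The EBF1wt difference passed the minimum without Mock replicate 2 (1.23), EBF1wt replicate 1 (1.13) or EBF1wt replicate 3 (1.07). Both probes lie within the single-exon gene and differ in base composition, 60% G and C in A_52_P605846 against 33.3% in A_52_P63553, so they are shown side by side, A_52_P63553 by its first 30 bases.
Cebpb A_52_P605846: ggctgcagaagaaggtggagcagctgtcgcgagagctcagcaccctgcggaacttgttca
Cebpb A_52_P63553: gagaaccttttccgtttcgagcattaaagt

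Cebpa, the C/EBP factor that opens the granulocyte and monocyte programme, was not well above background on any of the 9 arrays with either probe. Levels lay between -7.68 and -6.11 in EBF1ΔC, between -7.63 and -6.84 in EBF1wt, and between -7.61 and -6.98 in Mock, and no difference was tested. Of the 5 C/EBP family genes on the array, 4 were tested. EBF1ΔC minus EBF1wt gave no call among them in limma, with 2 higher and 0 lower at an unadjusted p under 0.05 and a median change of 0.23 against -0.000876 over all probes. Cebpd, an inflammation-induced member, was lower than Mock in EBF1ΔC (log2 change -1.30) and in EBF1wt (-1.42; adjusted p = 0.000265 and 0.000166), and Ddit3, the stress-induced member CHOP, was higher by 1.11 in EBF1ΔC (adjusted p = 8.86e-05) and by 0.76 in EBF1wt, which was not called. Of 8 tested myeloid transcription factors outside the family, Klf4, a monocyte factor, was higher in both EBF1 groups (1.16 in EBF1ΔC and 1.37 in EBF1wt), and Egr2, a macrophage and lymphocyte activation factor, was lower in both (-4.76 in EBF1ΔC and -4.69 in EBF1wt). Spi1, which encodes PU.1, differed from Mock by -0.53 in EBF1ΔC and -0.52 in EBF1wt, and Irf8 by -0.55 and -0.53, all under the 2-fold minimum.

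Tyrobp, the ITAM adaptor DAP12 of TREM receptors, showed the largest measured difference from Mock among the 10 genes. Its probe A_51_P261517 (chr7:31200651-31202378, plus strand, mm9, a span that is longer than the probe because it crosses an intron) is given whole.
Tyrobp A_51_P261517: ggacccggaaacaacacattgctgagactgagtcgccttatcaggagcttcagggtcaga
It read -4.42, -4.58 and -5.31 in EBF1ΔC, -3.92, -3.77 and -3.62 in EBF1wt, and 1.27, 1.19 and 0.99 in Mock. The groups did not overlap, and EBF1ΔC replicate 3 was not well above background. Tyrobp was 60.5-fold lower than in Mock in EBF1ΔC (log2 change -5.92, SE 0.22, adjusted p = 4.59e-07), and 30.3-fold lower in EBF1wt (log2 change -4.92, SE 0.22, adjusted p = 8.37e-07). EBF1ΔC minus EBF1wt was -0.997 (SE 0.22, adjusted p = 0.0352), a little under the 2-fold minimum, so it was not called. Without EBF1ΔC replicate 1 it was called (-1.17, adjusted p = 0.0396). This is the 1 tested gene of the 10 with a lower level in EBF1ΔC than in EBF1wt on an array probe above background in both groups.

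Fcer1g, the ITAM adaptor shared by Fc receptors, changed less. On A_51_P405476 (chr1:173159794-173159853, minus strand, mm9) it read -3.79, -3.66 and -3.59 in EBF1ΔC, -3.78, -3.81 and -3.93 in EBF1wt, and -2.58, -2.56 and -2.53 in Mock. The EBF1 groups overlapped each other and lay below Mock. It was 2.18-fold lower than in Mock in EBF1ΔC (log2 change -1.12, SE 0.08, adjusted p = 1.32e-05) and 2.44-fold lower in EBF1wt (log2 change -1.28, SE 0.08, adjusted p = 6.31e-06), and EBF1ΔC minus EBF1wt was 0.16 (95% interval -0.03 to 0.35). The second probe, A_51_P405478 (chr1:173159846-173159918), was above background in Mock alone and gave at least 2.19-fold lower levels in EBF1ΔC and at least 2.06-fold lower in EBF1wt. Among 7 tested genes of the ITAM adaptors and their receptors, 4 were lower and 1 higher than Mock in each EBF1 group. Of all probes, 16.3% were called lower and 6.04% higher in EBF1ΔC than in Mock, and 17.4% and 6.09% in EBF1wt. None of the 7 was called between EBF1ΔC and EBF1wt in limma, where 1 was higher and 1 lower at an unadjusted p under 0.05. Fcgr1, the high-affinity IgG receptor, was lower in EBF1ΔC (log2 change -5.68) and in EBF1wt (log2 change -6.37). Fcgr3, a low-affinity IgG receptor, was lower in EBF1ΔC (log2 change -3.10) and in EBF1wt (log2 change -3.45). Trem1, an activating receptor that pairs with Tyrobp, went the other way and was at least 9.81-fold higher in EBF1ΔC and at least 10.4-fold higher in EBF1wt than in Mock, where it was not well above background. Syk, the kinase that both adaptors recruit, differed from Mock by 0.76 in EBF1ΔC and 0.71 in EBF1wt, under the 2-fold minimum.

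Of the cytokine receptors, Csf1r, the receptor for M-CSF, was near or under background. Its 3 probes (chromosome 18) were well above background on 1 of 9 array readings in EBF1ΔC, 1 of 9 in EBF1wt and 3 of 9 in Mock, so none was tested. Csf2rb, the common beta chain of the IL-3, GM-CSF and IL-5 receptors, was well above background on all arrays with all 3 probes. On A_52_P52618 (chr15:78181168-78181227, plus strand, mm9) it read 2.62, 2.80 and 2.5 in EBF1ΔC, 2.31, 2.33 and 2.15 in EBF1wt, and 3.39, 3.42 and 3.48 in Mock. The groups did not overlap on any of the 3 probes, in the order Mock, EBF1ΔC, EBF1wt. EBF1wt was 2.25-fold lower than Mock on this probe (log2 change -1.17, SE 0.10, adjusted p = 2.34e-05) and 2.15-fold lower on A_52_P492939 (log2 change -1.10, SE 0.12, adjusted p = 7.93e-05), and the change on A_52_P664853 was -0.78 and not called. EBF1ΔC differed from Mock by -0.79, -0.73 and -0.41 on these probes, and from EBF1wt by 0.38, 0.37 and 0.36, all under the 2-fold minimum. With arrays scaled to their median the Csf2rb calls ended (-0.47 on A_52_P52618 and -0.40 on A_52_P492939 in EBF1wt), and EBF1ΔC minus Mock on A_52_P664853 was 0.13, of opposite sign. Its close copy Csf2rb2 can share signal with it, and was lower than Mock in EBF1ΔC (log2 change -1.11) and in EBF1wt (log2 change -1.81).

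Among the 6 tested genes of the CSF and IL-3 family, Csf1, which encodes M-CSF, was the one called between the EBF1 groups. It read 4.4, 4.61 and 4.76 in EBF1ΔC, 2.97, 2.37 and 2.81 in EBF1wt, and 4.65, 4.81 and 4.77 in Mock. EBF1ΔC exceeded EBF1wt by 1.87 (adjusted p = 0.000717), EBF1wt was lower than Mock (log2 change -2.02, adjusted p = 1.8e-05), and EBF1ΔC differed from Mock by -0.15 (adjusted p = 0.424). Il34, the second ligand of Csf1r, was lower in EBF1ΔC (log2 change -1.57, with 1 array of 3 well above background) and at least 2.01-fold lower in EBF1wt than in Mock. It passed the filter through Mock alone, which favours lower values in the EBF1 groups.

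Cd68, a lysosomal membrane protein of macrophages, was lower in both EBF1 groups than in Mock. Its probe A_51_P120470 (chr11:69478314-69478373, minus strand, mm9) read -2.58, -2.58 and -2.41 in EBF1ΔC, -3.27, -2.86 and -3.37 in EBF1wt, and -1.23, -1.39 and -1.23 in Mock, with no overlap. The changes from Mock were -1.24 in EBF1ΔC (SE 0.14, adjusted p = 0.000107) and -1.88 in EBF1wt (SE 0.14, adjusted p = 1.21e-05). EBF1ΔC minus EBF1wt was 0.64 (SE 0.14, adjusted p = 0.0342), under the 2-fold minimum.

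Ccl6, a chemokine of macrophages that acts through CCR1, kept the same order of groups and was called in every comparison. Its probe A_51_P460954 (chr11:83401997-83402056, minus strand, mm9) read -3.73, -3.45 and -3.21 in EBF1ΔC, -5.00, -5.92 and -4.92 in EBF1wt, and -0.95, -1.13 and -1.24 in Mock. The groups did not overlap, and EBF1wt replicate 2 was not well above background. EBF1ΔC exceeded EBF1wt by 1.82 (SE 0.26, adjusted p = 0.00697). Ccl6 was 5.11-fold lower than Mock in EBF1ΔC (log2 change -2.35, SE 0.26, adjusted p = 1e-04) and 18-fold lower in EBF1wt (log2 change -4.17, SE 0.26, adjusted p = 5.24e-06). The EBF1ΔC and EBF1wt arrays on shared slides differed by 2.71 and 1.19, and with the slide as a block the difference was 1.95 and no longer called (adjusted p = 0.158). With normexp background correction, an offset of 50 intensity units and quantile normalization together, the difference was 0.52 (adjusted p = 0.00423, limma) and under 2-fold. Of the other CCR1 ligands, Ccl3 was at least 3.14-fold and Ccl5 at least 1.95-fold lower in EBF1wt than in Mock, and in EBF1ΔC they differed from Mock by -0.77 and -0.79 and were not called. Ccl5 passed the filter through Mock alone.

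**Figure D3:**
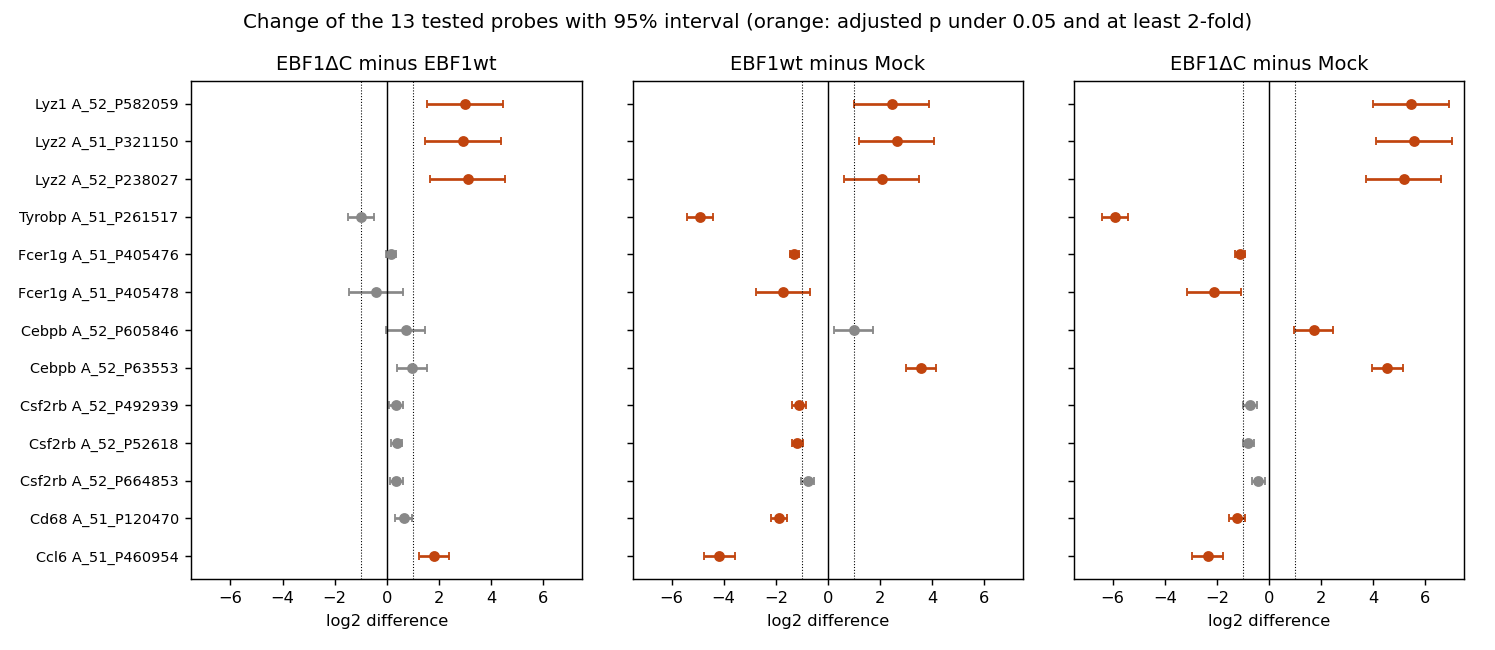
Log2 difference (x axis) with its 95% interval for the 13 tested probes (y axis) in EBF1ΔC minus EBF1wt, EBF1wt minus Mock and EBF1ΔC minus Mock; orange points were called and dotted lines mark a 2-fold change. Lysozyme and Cebpb lie right of 0 in both comparisons with Mock and Tyrobp, Fcer1g, Cd68 and Ccl6 left of it, and the orange points of the first panel are the 3 lysozyme probes and Ccl6.

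Over the 13 tested probes the median change was 0.64 for EBF1ΔC minus EBF1wt, against -0.000876 over all tested probes. It was -1.10 for EBF1wt minus Mock, against 0.044 over all probes, and -0.73 for EBF1ΔC minus Mock, against 0.038. EBF1ΔC and EBF1wt did not overlap on 10 of the 13 probes, against 27.5% of all probes tested, and 1.99% of all probes were called. EBF1wt and Mock did not overlap on any of the 13, against 72.7% of all probes, and 23.5% were called. EBF1ΔC and Mock did not overlap on any of the 13 either, against 71.9% of all probes, with 22.3% called. Most probes were thus apart from Mock, so the count of 13 says little about these genes.

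Some calls against Mock depended on background correction and scaling. With normexp correction, the offset of 50 and quantile normalization, changes fell under 2-fold for Fcer1g A_51_P405476 (-0.31 in EBF1ΔC and -0.35 in EBF1wt), Fcer1g A_51_P405478 (-0.19 in EBF1ΔC and -0.12 in EBF1wt) and Cd68 (-0.65 in EBF1ΔC and -0.90 in EBF1wt). The same held for Cebpb A_52_P605846 in EBF1ΔC (0.53), and for Lyz2 A_51_P321150 (0.66) and Csf2rb A_52_P492939 (-0.35) in EBF1wt. With arrays scaled to their median, Fcer1g A_51_P405476 (-0.58 in both EBF1 groups) and Cd68 in EBF1ΔC (-0.69) lost their calls. The calls of Tyrobp, of Ccl6, of Cebpb A_52_P63553 and of the Lyz1 probe against Mock stood under both settings.

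Markers of whole myeloid cell types were set beside these genes. Of 21 monocyte and macrophage markers, 9 were well above background on all 3 arrays of EBF1ΔC, 7 in EBF1wt and 13 in Mock. Of the 13 tested, 9 were lower and 0 higher in EBF1ΔC than in Mock, with a median change of -1.92, and 11 were lower and 0 higher in EBF1wt, with a median of -2.70. Of all probes, 16.3% were called lower and 6.04% higher in EBF1ΔC than in Mock, and 17.4% and 6.09% in EBF1wt. Itgax, Aif1, Marco and Ly86 passed the filter through Mock alone, which favours lower values in the EBF1 groups. None of the 13 was called by limma in EBF1ΔC minus EBF1wt, where 7 were higher and 2 lower at an unadjusted p under 0.05 and the median was 0.64. Itgax, the integrin CD11c, was at least 33.5-fold lower in EBF1ΔC and at least 31.5-fold lower in EBF1wt than in Mock, Ncf1, a subunit of the phagocyte oxidase, was lower in EBF1ΔC (log2 change -5.14) and at least 52.8-fold lower in EBF1wt, and Ccr2, a monocyte chemokine receptor, was lower in EBF1ΔC (log2 change -4.45) and at least 36.4-fold lower in EBF1wt. The defining macrophage markers Adgre1, Mrc1 and Msr1 did not clear background on any of the 9 arrays. The summed linear signal of the list, in units of each array's 75th percentile, was 31.5 to 43.3 in EBF1ΔC, 37.7 to 42.5 in EBF1wt and 79.6 to 80.9 in Mock. Most of that sum was Ctss, the lysosomal protease cathepsin S, at 86.4% to 87.6% in EBF1ΔC, 88.0% to 90.7% in EBF1wt and 71.5% to 72.6% in Mock. Without Ctss the sum was 3.90 to 5.52 in EBF1ΔC, 3.96 to 4.55 in EBF1wt and 22.1 to 23.1 in Mock.

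Of 12 neutrophil granule markers, Mpo, Elane and S100a8 among them, all 12 were under background on every array of EBF1ΔC and of EBF1wt, and 10 were in Mock. The 1 tested, Mmp9, was at least 17.0-fold lower in EBF1ΔC and at least 16.0-fold lower in EBF1wt. None of 10 mast cell and basophil markers was tested. Of 7 erythroid markers, 3 were tested and all 3 were lower in each EBF1 group than in Mock. Among all probes, 16.3% were called lower in EBF1ΔC and 17.4% in EBF1wt. Mmp9, Hba-a1 and Epor passed the filter through Mock alone. The summed signal of the 7 erythroid markers was 2.42 to 5.35 in EBF1ΔC, 3.31 to 5.47 in EBF1wt and 345 to 406 in Mock. What part the cells of other types played in the differences from Mock was not tested.

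**Figure D4:**
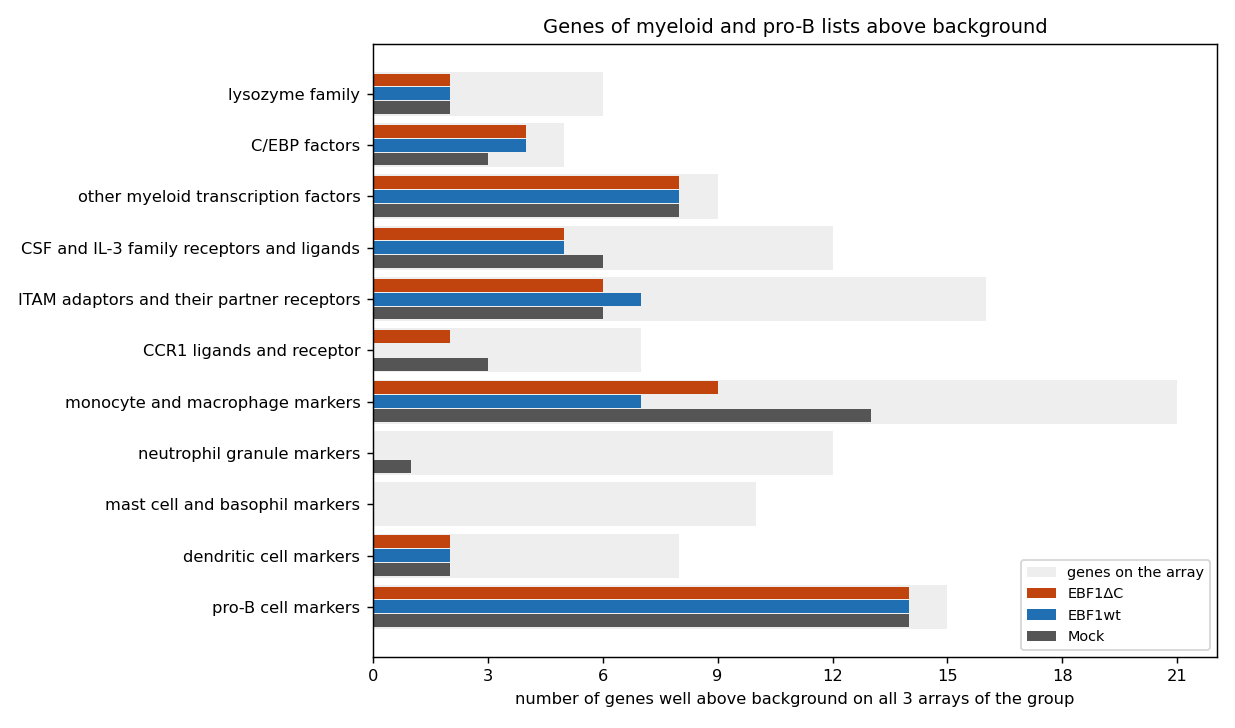
Number of genes that passed the background call on all 3 arrays of a group (x axis) for lists of myeloid and pro-B genes (y axis); coloured bars are EBF1ΔC, EBF1wt and Mock, and pale bars give the number of genes on the array. Of 21 monocyte and macrophage markers 9, 7 and 13 passed, no neutrophil granule or mast cell marker passed in either EBF1 group, and 14 of 15 pro-B markers passed in all 3 groups.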

How the data were processed

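Total RNA was labelled with Cy3 and hybridised in 1 colour to 9 Agilent arrays, 1 for each of 9 samples, and the deposited scanner files give intensity per spot. Per the file headers, background was subtracted by Agilent Feature Extraction 10.5.1.1; the submitters' processing notes name version 9.1. The authors' deposited value table holds log2 values whose normalization is not stated in the sources used here; its column medians were about 6.74 and each column correlated with r = 0.996 to 0.997 with quantile-normalized log2 intensity after an offset of 50, and it served as an alternative.

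Processed signals were averaged over the spots of a probe without control spots and outlier flags (73 to 163 spots per array), log2-transformed and scaled to the array's 75th percentile. Genes were named through RefSeq accessions or the file's symbol. Of 41174 probes, 22355 with a signal clear of background on the 3 arrays of 1 group or more were tested with limma 3.58.1 in R 4.3.3, with 1 fit over the 3 groups (6 residual degrees of freedom), Benjamini-Hochberg adjustment over all tested probes, and calls at adjusted p under 0.05 and at least 2-fold. A fold against a group with no array above background is a bound. Where a list gene had several probes, the brightest was used. The number of arrays limits the precision. The fit was tested on simulated data. The named genes are the 10 members, up to 4 called genes of each list in each comparison, values of list genes without a call, and the 5 genes most like Lyz2. Members and lists were chosen with earlier results of these data known. Same-numbered replicates correlated at -0.14 to 0.14, so the numbers were not used to pair arrays. Other background correction, scaling, filters, blocks, weights and fits, and the omission of each array, were tried as alternatives.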

Additional observations from a re-analysis of the deposited data

How the results depend on the processing

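Of the alternatives for single probes, 714 kept direction and side of the threshold, 63 lost the call, 6 gained it and 3 changed sign. The sign changes were Csf2rb A_52_P664853 in EBF1ΔC minus Mock with median scaling (0.13 in place of -0.41), and Fcer1g A_51_P405478 in EBF1ΔC minus EBF1wt with the slide as a block (0.17) or without EBF1ΔC replicate 2 (0.22 in place of -0.40; -0.85 to 0.22 over all single arrays left out). In EBF1ΔC minus EBF1wt the 4 called probes became 1 with no filter, 2 with probes above background on all 9 arrays, 0 with the slide as a block (93 calls among all probes), 2 with trended and robust moderation, 1 in a fit of the 2 groups alone, and 1 to 4 when 1 array was left out. With the replicate block 1 remained called, Ccl6, while 375 of all probes were called. In EBF1wt minus Mock the 11 calls became 6 with normexp and quantile normalization, with the authors' values, and with probes above background on all 9 arrays; the 10 calls of EBF1ΔC minus Mock became 6, 6 and 4. Leaving out 1 array gave 10 to 12 and 10. Where fewer probes were called after the filter on all 9 arrays, 7 of the 13 were tested. The cause of the other changes was not tested. An offset of 50 shrinks log differences between dim signals, but its part was not tested apart from normexp correction and quantile normalization. Among all probes, normexp with quantile normalization called 176, 1804 and 1862 in place of 445, 5252 and 4987, the authors' values 169, 1745 and 1802, and the fit of 2 groups 259 for EBF1ΔC minus EBF1wt. Requiring all 9 arrays gave 289, 3225 and 3102, dropping the fold minimum gave 1249, 14954 and 14458, and 1 probe a gene gave 2346 and 2186 against Mock. Median scaling moved the median of all probes by 0.70, to 0.75, in EBF1wt minus Mock and by 0.55, to 0.58, in EBF1ΔC minus Mock, and turned the split of 1362 higher and 3890 lower into 7925 and 1978, and that of 1351 and 3636 into 5520 and 2189. Quantile normalization gave 2057 higher and 2815 lower, and 2009 and 2868.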

Other observations

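Dendritic and lymphoid genes were also read. Of 8 dendritic cell markers 2 were tested, and Bst2, an interferon-inducible membrane protein, was lower than Mock in both EBF1 groups (log2 change -1.41 in EBF1ΔC and -1.45 in EBF1wt). Of 5 tested T and NK cell markers, 2 were higher and 2 lower in EBF1ΔC than in Mock, and 1 was higher and 2 lower in EBF1wt than in Mock. Over all probes, 6.04% were called higher and 16.3% lower in EBF1ΔC than in Mock, and 6.09% and 17.4% in EBF1wt. Zap70, a kinase of T-cell receptor signalling, was higher than Mock by 1.27 in EBF1ΔC and 1.63 in EBF1wt, and Lck, another such kinase, by 1.04 in EBF1ΔC. Cd3d, a chain of the T-cell receptor complex, was lower in EBF1ΔC (log2 change -3.49, with 1 array of 3 well above background) and at least 6.87-fold lower in EBF1wt. Nkg7, a granule protein of NK and cytotoxic T cells, was at least 2.29-fold lower in EBF1ΔC and at least 2.21-fold lower in EBF1wt. Cd3d and Nkg7 passed the filter through Mock alone, which favours lower values in the EBF1 groups.

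EBF1wt replicate 2 stood apart from the other EBF1wt arrays outside lysozyme too. It shared a slide with EBF1ΔC replicate 3, which was lowest of its group on lysozyme and Mpeg1 and highest on Rag1. When arrays were weighted by their spread, these arrays had the lowest weights, 0.42 for EBF1wt replicate 2 and 0.52 for EBF1ΔC replicate 3. What part the slide played was not tested. Rag1, which cuts DNA in V(D)J recombination, read 0.82, 0.84 and 1.56 in EBF1ΔC, -0.33, -2.23 and -0.64 in EBF1wt, and -3.43, -2.70 and -3.48 in Mock. Mpeg1, a pore-forming protein of macrophages, read 0.38, 0.33 and -1.16 in EBF1ΔC, -0.62, -2.69 and -1.03 in EBF1wt, and 2.60, 2.52 and 2.75 in Mock. These genes were picked after their values were seen.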
